A study of Mus musculus with 10 samples.

Results

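The chromatin of 9 genes for protein tyrosine phosphatases was examined in naive CD4 T cells: Ptprc, Ptprj, Ptpn1, Ptpn2, Ptpn6, Ptpn7, Ptpn11, Ptpn13 and Ptpn22. Accessibility was measured by ATAC-seq. In this assay a transposase inserts sequencing adapters where DNA is accessible, and each stretch with many such reads is a peak. The members are the 62 peaks, of 61571 nuclear peaks in all, whose deposited gene symbol is 1 of these 9. Ptprc holds 18 of them, Ptpn1 15, Ptpn11 and Ptpn22 7 each, Ptpn6 and Ptpn13 4 each, Ptprj and Ptpn2 3 each and Ptpn7 1. A symbol marks the nearest annotated start site and does not show that a peak acts on that gene.

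The KO group comprised 5 libraries from tamoxifen-treated mice and the WT group 5 libraries from untreated mice. Both groups carry the genotype Satb1fl/fl x CD4-CreERT2wt/+, so the WT mice also have the floxed Satb1 alleles and the tamoxifen-dependent Cre, which CD4 drives. Satb1, the deleted gene, encodes a chromatin organiser abundant in T cells. Tamoxifen itself was given to KO mice alone, and its own effects and those of Satb1 loss cannot be told apart here. Each library was made from 60000 T cells of spleen and lymph node that were sorted as naive, being CD3+, CD4+, CD25- and CD44 low or negative. Age, sex and the number of mice behind each library are not in the labels, so p-values describe the spread among libraries, which may be technical.

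Protein tyrosine phosphatases remove phosphate groups from tyrosines and thereby oppose or enable the work of tyrosine kinases. In T cells the receptor-type phosphatase CD45, the product of Ptprc, takes the inhibitory phosphate off the kinase LCK, without which the T cell receptor signals poorly. Cytoplasmic phosphatases such as those of Ptpn22 and Ptpn6 act mostly as brakes on the same pathway, and those of Ptpn1 and Ptpn2 on cytokine receptors and their JAK kinases.

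Levels are given as CPM, counts scaled to 1000000 counts in peaks per library. The libraries held between 660107 and 2167685 counts in nuclear peaks, with a mean of 1458091 ± 648113 in KO and 1635809 ± 412969 in WT (SD, n = 5 each). The lowest totals belonged to Sample_2270_KO, Sample_2273_WT and Sample_2269_KO. Counts of Sample_2270_KO and Sample_2268_KO differed by less than the sampling noise (chi-square test over peaks, p = 1), as did those of Sample_2273_WT and Sample_2276_WT (p = 0.999), so each such pair may be 1 library. Sample_2270_KO was also within that noise of Sample_2271_KO and Sample_2272_KO, and Sample_2273_WT of Sample_2277_WT, although those partners differed from each other. The libraries were therefore kept as 5 per group, and all peak and gene calls named below for the 9 genes also held with the first 2 pairs counted as 1 library each. The targeted gene, Satb1, had 436.9 ± 13.2 CPM over its 26 peaks in KO libraries and 380.7 ± 20.3 CPM in WT libraries (SD, n = 5), an edgeR adjusted p of 0.0245. The floxed part of Satb1 is not given in the labels, so its peaks are no check of them.

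Marker genes of other cell types lay at overlapping summed levels. B cell genes, 4 of 8 of them annotated, reached 58.5 to 70.0 CPM in KO libraries and 56.1 to 74.2 CPM in WT libraries. CD8 T cell genes (3 of 4) reached 35.0 to 42.3 CPM in KO libraries and 35.3 to 45.4 CPM in WT libraries, and NK and innate lymphoid genes (5 of 6) 379 to 426 CPM in KO libraries and 385 to 415 CPM in WT libraries. Myeloid genes (6 of 8) reached 247 to 285 CPM in KO libraries and 228 to 270 CPM in WT libraries, and erythroid and stromal genes (5 of 8) 194 to 248.9 CPM in KO libraries and 203 to 225 CPM in WT libraries. Defining genes such as Ms4a1, Csf1r and Ncr1 had no annotated peak and were not analysed here. Single genes carried much of some sums. Mean levels in KO and WT libraries were 170 and 164 CPM for Cebpb (myeloid list) and 140 and 130 CPM for Klrb1c (NK list). For Pecam1 (erythroid and stromal list) they were 110 and 106 CPM. Overlapping sums therefore do not show how many such cells were present. The 13 naive CD4 T cell genes summed to 3351 to 3590 CPM in KO libraries and 3174 to 3513 CPM in WT libraries, and 2 of them were called higher, Il7r among them. The 7 genes of activated or memory T cells summed to 798 to 881 CPM in KO libraries and 731 to 831 CPM in WT libraries, with 5 of 25 tested peaks called higher and 0 lower by edgeR (2.96% and 0.928% of all tested peaks) and 2 higher by DESeq2. Regulatory T cell genes summed to 318 to 381 CPM in KO libraries and 301 to 338 CPM in WT libraries. Among these 5 genes edgeR called Ikzf2 higher (adjusted p = 0.0152), where 1.65% of all gene sums were called higher, and DESeq2 called 0. The part of these shifts in the results below was not tested.

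Of the 62 peaks, 41 held enough counts to be tested, and 4 of them differed between KO and WT. Peaks near Ptprc, Ptprj and Ptpn22 were more accessible in KO, and a peak far upstream of Ptpn13 was less accessible. The 4 calls are 9.76% of the tested member peaks, where 3.89% of all 34695 tested peaks were called (edgeR quasi-likelihood test, Benjamini-Hochberg adjusted p under 0.05). Of all tested peaks 2.96% were called higher and 0.928% lower. The called Ptprc and Ptprj peaks passed the count filter through the KO libraries, where they are high. All 4 lay outside promoters: 4 of 31 tested member peaks there were called (12.9%), against 5.85% of all tested peaks outside promoters (4.42% higher and 1.43% lower), and 0 of 10 promoter peaks of these genes were called, against 1.62% of all promoter peaks (edgeR; 1 member promoter peak had an unadjusted p under 0.05, and DESeq2 and limma-voom called 0). The promoter class of the annotation reaches 3 kb from a start site, and the called Ptprj peak, at 3018 bp, lies just beyond that limit. DESeq2 called 3 of the 4 (0.998% of the peaks it adjusted), leaving out the Ptprj peak, and limma-voom called the same 4 (3.66%). In 6 of the 41 tested member peaks, the 4 called ones among them, the CPM ranges of KO and WT were separate. Over all tested peaks this was so for 3.97%. A bulk library cannot tell more cells with an open site from a site that is more open in each cell.

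**Figure D1:**
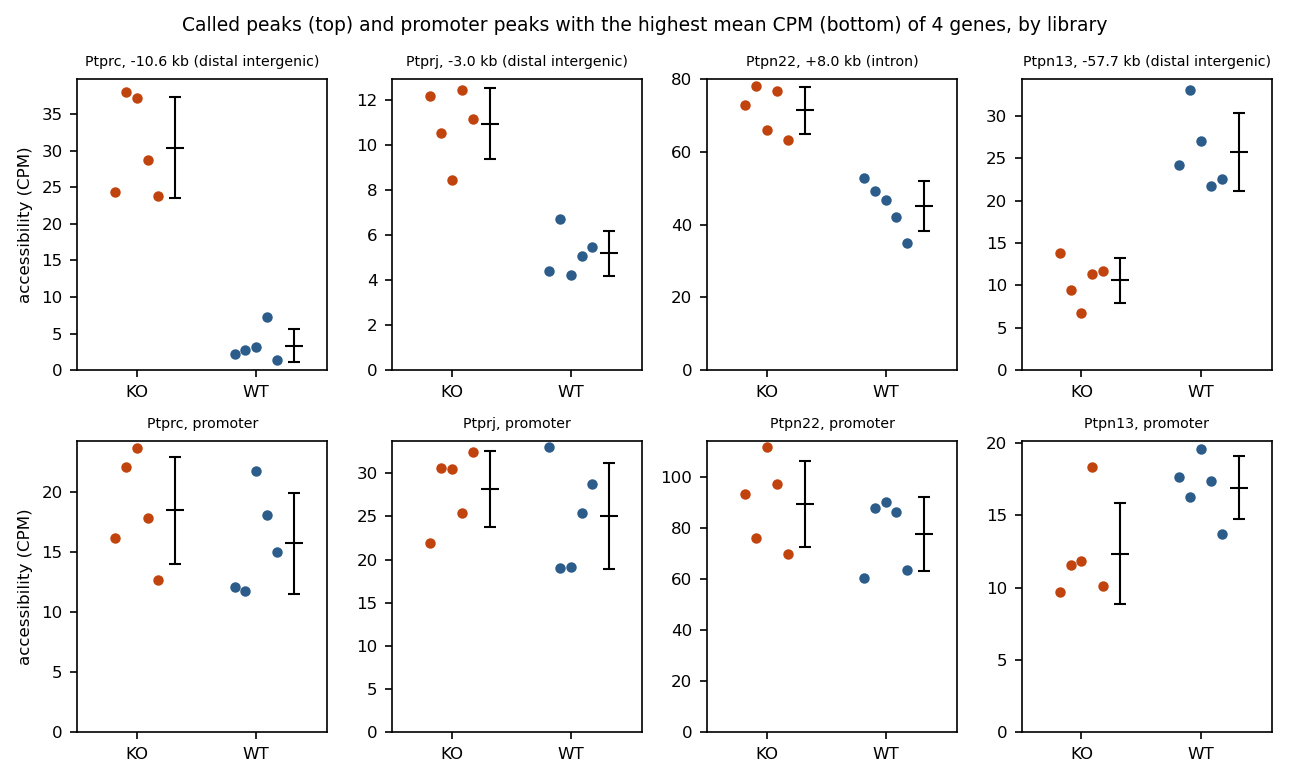
CPM in each library (points) with the mean and SD (bars, n = 5) for the 4 called peaks in the upper row and for the promoter peak with the highest mean CPM of the same genes in the lower row, KO left of WT in each panel. In the upper row the groups do not overlap, and in the lower row they do.

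The promoter sequences of these 4 genes are shown because their promoter peaks, unlike the called peaks, were not called. The windows come from RefSeq (GRCm38.p6, the assembly of mm10), run 5′ to 3′ on the strand of the gene from 250 bases before to 50 after a RefSeq start, and are those that overlap the promoter peak most. They lie at chr1:138175077-138175376 (Ptprc, minus strand), chr2:90580546-90580845 (Ptprj, minus strand), chr3:103860027-103860326 (Ptpn22, plus strand) and chr5:103424942-103425241 (Ptpn13, plus strand). Capitals mark matches to the searched motifs.
Ptprc: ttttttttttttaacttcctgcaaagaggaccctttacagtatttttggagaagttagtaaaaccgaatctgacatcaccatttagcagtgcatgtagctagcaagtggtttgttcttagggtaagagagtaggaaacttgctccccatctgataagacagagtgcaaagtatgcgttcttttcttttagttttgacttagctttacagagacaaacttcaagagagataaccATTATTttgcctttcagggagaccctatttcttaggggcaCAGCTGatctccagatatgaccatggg
Ptprj: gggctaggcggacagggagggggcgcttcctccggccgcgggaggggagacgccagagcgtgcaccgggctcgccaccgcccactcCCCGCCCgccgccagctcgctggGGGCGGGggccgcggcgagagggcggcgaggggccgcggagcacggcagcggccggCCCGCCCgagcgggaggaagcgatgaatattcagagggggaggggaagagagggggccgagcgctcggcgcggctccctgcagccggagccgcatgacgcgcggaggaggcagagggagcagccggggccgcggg
Ptpn22: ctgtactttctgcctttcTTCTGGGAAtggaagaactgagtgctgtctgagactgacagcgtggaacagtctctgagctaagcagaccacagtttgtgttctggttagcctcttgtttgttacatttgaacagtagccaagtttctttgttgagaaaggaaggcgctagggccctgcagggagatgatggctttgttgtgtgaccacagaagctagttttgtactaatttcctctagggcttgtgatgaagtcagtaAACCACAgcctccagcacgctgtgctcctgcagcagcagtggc
Ptpn13: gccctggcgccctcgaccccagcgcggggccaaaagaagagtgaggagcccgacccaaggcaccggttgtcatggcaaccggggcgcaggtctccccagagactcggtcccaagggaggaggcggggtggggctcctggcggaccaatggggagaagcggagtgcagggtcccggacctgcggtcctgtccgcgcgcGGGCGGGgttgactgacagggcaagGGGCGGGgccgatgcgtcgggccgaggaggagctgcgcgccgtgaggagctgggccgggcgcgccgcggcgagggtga

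The Ptprc window is AT-rich, with 39.3% G and C and 2 CpG pairs, and 8.83% of 32544 RefSeq windows have a lower share. The Ptpn22 window holds 48.7% and 3 CpG pairs. The Ptprj and Ptpn13 windows are CpG-rich, with 79.3% and 42 pairs and with 74.0% and 33 pairs, where the median window has 53%. Of 10 motifs searched on both strands, the KLF/SP motif GGGCGGG occurs 3 times in the Ptprj window and 2 times in the Ptpn13 window, and in 25.7% of all windows. The Ptprc window holds an E-box, CAGCTG (16.4% of all windows), and the A and T run AATAAT (11.5%). The Ptpn22 window holds the RUNX motif TGTGGTT (5.29%) and the STAT motif TTCNNNGAA (8.33%). The other motifs, CGGAAGT for ETS (6.46%), TGANTCA for AP-1 (7.79%), CTTTGAA for TCF/LEF (5.15%), AGATAAG for GATA factors (3.02%) and TGGAAAA for NFAT (6.71%), have no match in these 4 windows, and a match or its absence is a description of these letters only. The sequences of the 4 called peaks were not analysed here.

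Among the receptor-type members, Ptprc encodes CD45, the abundant surface phosphatase of nucleated blood cells. The gene lies on the minus strand of chromosome 1 (mm10, 138062859 to 138175305). A distal intergenic peak 10613 bp upstream of its start site, at 138185918 to 138186255 (338 bp), was nearly closed in WT and open in KO. It had 24.4, 38.0, 37.2, 28.7 and 23.8 CPM in libraries Sample_2268_KO to Sample_2272_KO, and 2.204, 2.80, 3.18, 7.25 and 1.37 CPM in libraries Sample_2273_WT to Sample_2277_WT. Every KO library lay above every WT library, and the lowest KO value was more than 3 times the highest WT value. The counts behind these levels were 22 to 53 in KO and 2 to 10 in WT. The mean was 30.4 ± 6.84 CPM in KO libraries and 3.36 ± 2.28 CPM in WT libraries (SD, n = 5), a log2 fold change of 3.05 ± 0.25 (SE) or 8.27-fold (edgeR adjusted p = 1.06e-16). By p it ranked 12 and by size of rise 9 among the 34695 tested peaks. The count filter keeps a peak that is high enough in as many libraries as 1 group holds. This peak passed through its KO libraries, and its WT libraries alone would not have passed it. The ranks are therefore no independent support for the rise. The nearest RefSeq gene is the pseudogene Gm18667 at 1104 bp, and the next on the other side is Atp6v1g3 at 87483 bp.

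The rest of Ptprc did not differ detectably. Of its 18 peaks 14 were tested, and the 13 others had folds between 0.738 and 1.24, with 0.335 as the lowest adjusted p (edgeR). The promoter peak (138175189 to 138175403) had 18.5 ± 4.47 CPM in KO libraries and 15.8 ± 4.22 CPM in WT libraries (SD, n = 5), with a log2 fold change of 0.08 ± 0.19 and an adjusted p of 0.916. A peak 16357 bp upstream, on the far side of the called one and in an exon of another transcript, had 70.4 ± 13.3 CPM in KO libraries and 67.0 ± 8.82 CPM in WT libraries (adjusted p = 0.981). The introns gave the same picture: the peak 38533 bp downstream of the start had 54.8 ± 4.97 CPM in KO libraries and 54.2 ± 2.65 CPM in WT libraries. These 2 peaks are named for their place and level, chosen after their values were seen.

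Summed over all its peaks, Ptprc was not called. The 18 peaks together had 355.3 ± 38.1 CPM in KO libraries and 313.1 ± 16.0 CPM in WT libraries (SD, n = 5), a log2 fold change of 0.16 ± 0.06 that did not pass over 12489 gene sums (edgeR adjusted p = 0.184). The KO libraries spanned 309.0 to 394.6 CPM and the WT libraries 293.3 to 330.9 CPM, so the groups overlap. The called peak held 8.55% of the counts of Ptprc in KO and 1.08% in WT. Its log2 ratio to the other Ptprc peaks was -3.41 ± 0.23 in KO and -6.55 ± 0.79 in WT (SD, n = 5), a difference of 3.14 (two-sided exact permutation p = 0.00794, the smallest that a split of 5 against 5 allows; adjusted over the 4 called peaks, 0.0159). The numerators of these ratios were chosen as called in the same libraries, so the tests are no independent support for the calls.

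**Figure D2:**
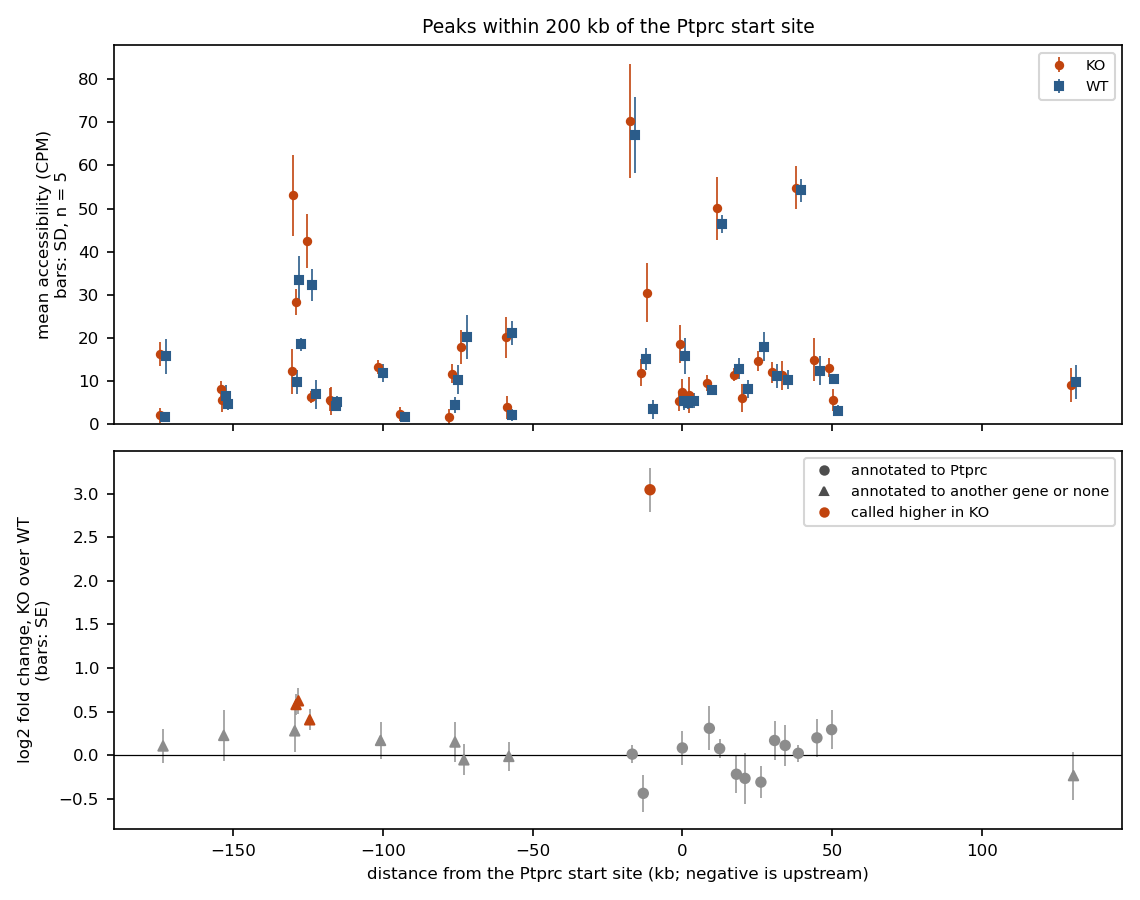
Peaks within 200 kb of the Ptprc start site by distance in kb (negative is upstream): mean CPM with SD (n = 5) in KO and WT in the upper panel, log2 fold change KO over WT with SE for tested peaks in the lower panel. The peak 10.6 kb upstream stands at 3.05, the other tested Ptprc peaks lie between -0.44 and 0.31, and 3 called peaks annotated to another gene lie 124.4 to 128.9 kb upstream.

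Within 200 kb of the Ptprc start site 25 peaks were tested, 11 of them annotated to other genes or to none. Of these 11, 3 were called by edgeR, all higher in KO, where 2.96% of all tested peaks were called higher and 0.928% lower. All 3 were annotated to Atp6v1g3, which encodes a subunit of the vacuolar proton pump. The peak at 138299560 to 138299855, 124.4 kb upstream of Ptprc, had 42.6 ± 6.26 CPM in KO libraries and 32.2 ± 3.76 CPM in WT libraries (1.32-fold, edgeR adjusted p = 0.0361). The peak at 138303290 to 138303628 had 28.4 ± 3.01 CPM in KO libraries and 18.4 ± 1.43 CPM in WT libraries (1.54-fold, adjusted p = 0.00477), with no overlap between groups. The next peak at 138304010 to 138304498 had 53.1 ± 9.41 CPM in KO libraries and 33.5 ± 5.38 CPM in WT libraries (1.496-fold, adjusted p = 0.000386). DESeq2 called 1 of the 3 and limma-voom 2. The 7 tested peaks between these and the exonic Ptprc peak at 16.4 kb, or farther out, were not called, nor was the tested peak beyond the 3′ end.

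The libraries in which Ptprc was high were compared with those of other genes as a description. Over the 10 libraries, the gene sums most like that of Ptprc in log2 CPM were those of Tmem11 (Pearson r = 0.931), Araf (0.903), Creb3l1 (0.897), Asb13 (0.896) and Tbrg4 (0.890), out of 7387 genes with a mean of at least 50 CPM. For the called peak, the most alike of 30157 peaks were annotated to Ctla4 (0.982), Pde7a (0.981), Gvin1 (0.979), Lclat1 (0.978) and Znrf2 (0.976). All 10 points share the split into KO and WT and the library depths. The Pde7a peak, for example, had 26.4 CPM in KO libraries and 6.19 CPM in WT libraries, and the Ctla4 peak 34.2 CPM in KO libraries and 22.2 CPM in WT libraries.

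Ptprj encodes CD148, a receptor-type phosphatase of haematopoietic and other cells that acts on SRC-family kinases. It lies on the minus strand of chromosome 2 (90429756 to 90580647), and a peak 3018 bp upstream of its start (90583665 to 90583797, 133 bp), classed as distal intergenic and lying inside the RefSeq gene Gm46752, was more accessible in KO. It had 12.2, 10.6, 8.46, 12.4 and 11.2 CPM in libraries Sample_2268_KO to Sample_2272_KO, against 4.41, 6.73, 4.25, 5.08 and 5.48 CPM in libraries Sample_2273_WT to Sample_2277_WT. The groups do not overlap, but the levels rest on 5 to 23 counts per KO library and 4 to 12 per WT library. The mean was 10.96 ± 1.59 CPM in KO libraries and 5.19 ± 0.996 CPM in WT libraries (SD, n = 5), a log2 fold change of 1.10 ± 0.27 or 2.14-fold (edgeR adjusted p = 0.00408). DESeq2 did not call it (adjusted p = 0.175). Like the called Ptprc peak, this Ptprj peak passed the count filter through its KO libraries.

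The promoter peak of Ptprj (90580106 to 90580725) had 28.2 ± 4.36 CPM in KO libraries and 25.1 ± 6.11 CPM in WT libraries (SD, n = 5; log2 fold change 0.23 ± 0.15, edgeR adjusted p = 0.546). The other peak, in intron 1 of 23, was too low to test, at 6.48 ± 2.23 CPM in KO libraries and 2.18 ± 2.05 CPM in WT libraries. Summed, the 3 peaks had 38.97 to 49.11 CPM in KO libraries and 27.46 to 38.45 CPM in WT libraries, and all KO libraries were higher. The mean was 45.9 ± 4.16 CPM in KO libraries and 32.6 ± 4.48 CPM in WT libraries (SD, n = 5), a log2 fold change of 0.52 ± 0.12 (edgeR adjusted p = 0.00736). Without the called peak the log2 fold change of the sum was 0.37 and did not pass (adjusted p = 0.209), and without Sample_2272_KO the adjusted p was 0.0524. DESeq2 (adjusted p = 0.166) and edgeR on counts thinned to the lowest total (0.266) did not call the sum either. The ratio of the called peak to the other 2 differed by 0.69 on the log2 scale (exact permutation p = 0.0476, adjusted over the 4 peaks 0.0476), and it lost the threshold when any 1 library other than Sample_2270_KO or Sample_2274_WT was left out (8 of 10 cases). Of 6 tested peaks of other genes within 200 kb, 0 were called or had an unadjusted p under 0.05 with edgeR, and DESeq2 and limma-voom called 0.

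**Figure D3:**
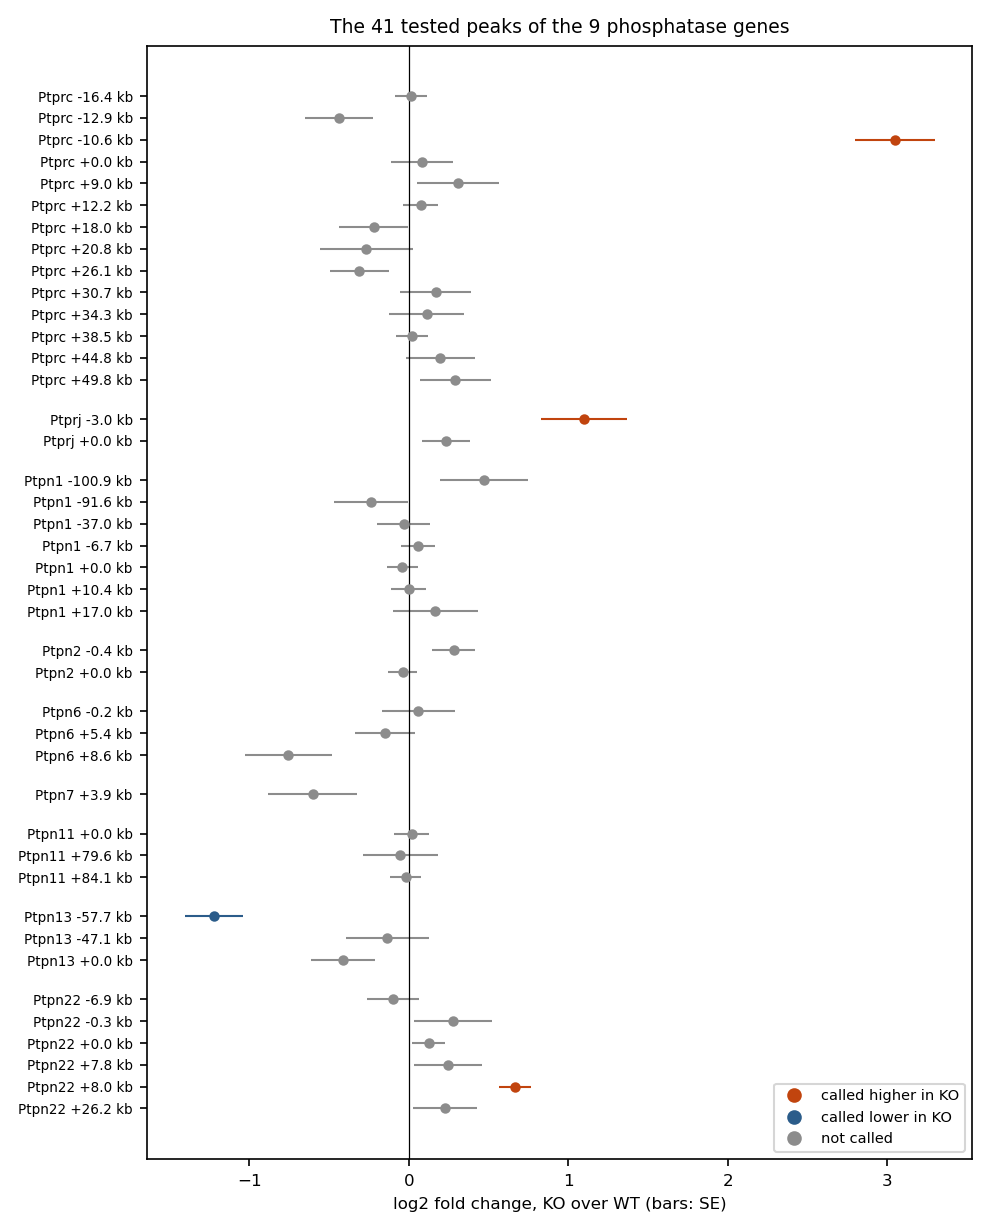
Log2 fold change KO over WT with SE (edgeR) for each of the 41 tested peaks of the 9 genes, arranged by gene and by distance from the start site in kb. Called peaks are coloured, and the 37 others lie between -0.76 and 0.47.

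Among the cytoplasmic members, Ptpn22 encodes the lymphoid phosphatase that, bound to the kinase CSK, damps LCK and ZAP70, and its human counterpart is a known locus of autoimmune risk. It lies on the plus strand of chromosome 3 (103859795 to 103912252). A 612 bp peak in intron 3 of 22 (103867840 to 103868451), 8045 bp downstream of the start, was more accessible in KO. It had 73.1, 78.1, 66.0, 76.8 and 63.4 CPM in libraries Sample_2268_KO to Sample_2272_KO, against 52.9, 49.4, 46.7, 42.1 and 34.9 CPM in libraries Sample_2273_WT to Sample_2277_WT. Every KO library lay above every WT library. The mean was 71.5 ± 6.52 CPM in KO libraries and 45.2 ± 6.97 CPM in WT libraries (SD, n = 5), a log2 fold change of 0.67 ± 0.10 or 1.59-fold (edgeR adjusted p = 9.28e-07).

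None of the other 5 tested Ptpn22 peaks passed. The peak at 103867552 to 103867729, in the same intron, had 13.3 ± 2.80 CPM in KO libraries and 12.3 ± 3.09 CPM in WT libraries (SD, n = 5; edgeR adjusted p = 0.693). The promoter peak (103859827 to 103860448) had 89.7 ± 16.8 CPM in KO libraries and 77.8 ± 14.4 CPM in WT libraries (log2 fold change 0.13 ± 0.10, adjusted p = 0.675). Summed over 7 peaks, Ptpn22 had 205.3 to 250.6 CPM in KO libraries and 163.7 to 209.9 CPM in WT libraries, which overlap. The mean was 233.2 ± 18.5 CPM in KO libraries and 189.7 ± 19.5 CPM in WT libraries (SD, n = 5), a log2 fold change of 0.27 ± 0.07 (edgeR adjusted p = 0.0152).

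This gene call was the least firm of the 3. Leaving out Sample_2271_KO, Sample_2273_WT or Sample_2277_WT ended it (edgeR adjusted p = 0.0975, 0.0698 and 0.0714), as did DESeq2 (0.0779) and leaving out the called peak (0.596). The ratio of the intronic peak to the other Ptpn22 peaks differed by 0.50 on the log2 scale (exact permutation p = 0.0397, adjusted over the 4 peaks 0.0476), and against the promoter peaks alone by 0.45 (p = 0.103). It lost the threshold when any 1 library other than Sample_2270_KO or Sample_2273_WT was left out (8 of 10 cases). Within 200 kb, 14 tested peaks of other genes held 0 calls with edgeR, DESeq2 or limma-voom, and 4 had an unadjusted p under 0.05 with edgeR. An example is the Hipk1 peak 78.9 kb upstream, at 103780794 to 103781086, with 16.6 ± 4.31 CPM in KO libraries and 9.62 ± 3.25 CPM in WT libraries (edgeR adjusted p = 0.0525), chosen after its value was seen.

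Ptpn13 encodes a large cytoplasmic phosphatase with PDZ domains that binds, among others, the death receptor FAS in human cells. It was the only member with a peak called less accessible in KO. The gene lies on the plus strand of chromosome 5 (103425192 to 103598361), and the called peak is intergenic, 57683 bp upstream (103367054 to 103367509, 456 bp) and 6300 bp from the long noncoding RNA gene Gm30443. It had 13.8, 9.50, 6.77, 11.4 and 11.7 CPM in libraries Sample_2268_KO to Sample_2272_KO, against 24.3, 33.1, 27.1, 21.8 and 22.6 CPM in libraries Sample_2273_WT to Sample_2277_WT. Every KO library lay below every WT library. The mean was 10.6 ± 2.64 CPM in KO libraries and 25.8 ± 4.58 CPM in WT libraries (SD, n = 5), a log2 fold change of -1.22 ± 0.18 or 0.429-fold (edgeR adjusted p = 4.74e-07), which ranked 8 by size of fall among all tested peaks.

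The other 3 Ptpn13 peaks had lower means in KO, and of these 2 were tested and did not pass. The promoter peak (103424956 to 103425351) had 12.3 ± 3.49 CPM in KO libraries and 16.9 ± 2.17 CPM in WT libraries (SD, n = 5), a log2 fold change of -0.41 ± 0.20 (edgeR adjusted p = 0.334), and Sample_2271_KO stood at 18.4 CPM while the other KO libraries reached at most 11.8 CPM. Summed over 4 peaks, Ptpn13 had 28.79 to 45.42 CPM in KO libraries and 48.16 to 71.79 CPM in WT libraries, without overlap. The mean was 37.7 ± 6.12 CPM in KO libraries and 60.7 ± 8.58 CPM in WT libraries (SD, n = 5), a log2 fold change of -0.65 ± 0.11 (edgeR adjusted p = 0.000138). Without the called peak the sum still had a negative log2 fold change, -0.32, which did not pass (adjusted p = 0.331). The called peak fell relative to the other 3 as well, by 0.91 on the log2 scale (exact permutation p = 0.00794, adjusted over the 4 peaks 0.0159). Of 2 tested peaks of other genes within 200 kb, 0 were called or had an unadjusted p under 0.05 with edgeR, and DESeq2 and limma-voom called 0.

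Ptpn6 and Ptpn11 encode SHP-1 and SHP-2, phosphatases with paired SH2 domains that dock on phosphorylated receptors, SHP-1 mostly as a brake and SHP-2 often as a positive element of growth factor signalling. No peak of either was called. In Ptpn6 a peak in intron 3 of 15 (chromosome 6, 124729925 to 124730063) had 4.06, 8.44, 3.39, 8.11 and 7.10 CPM in libraries Sample_2268_KO to Sample_2272_KO, against 6.61, 15.7, 6.90, 13.8 and 12.3 CPM in libraries Sample_2273_WT to Sample_2277_WT. The groups overlap, and the log2 fold change of -0.76 ± 0.27 did not pass (edgeR adjusted p = 0.113), though without Sample_2275_WT it did, at -0.94 (adjusted p = 0.0305). The Ptpn6 promoter peak had 11.4 ± 2.401 CPM in KO libraries and 10.6 ± 2.80 CPM in WT libraries (adjusted p = 0.955), and the gene sum 36.1 ± 5.45 CPM in KO libraries and 43.3 ± 5.89 CPM in WT libraries (SD, n = 5; adjusted p = 0.456). Ptpn11 had 135.9 ± 10.1 CPM in KO libraries and 134.9 ± 6.49 CPM in WT libraries as a sum (adjusted p = 0.992). Its promoter peak had 48.9 ± 5.51 CPM in KO libraries and 48.4 ± 7.46 CPM in WT libraries (adjusted p = 0.970), and the tested Ptpn11 peak with the smallest p, 79607 bp downstream of the start, 10.4 ± 1.34 CPM in KO libraries and 10.1 ± 2.05 CPM in WT libraries.

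Ptpn1 and Ptpn2 encode PTP1B and TCPTP, close relatives that dephosphorylate JAK kinases, and TCPTP also STAT proteins and LCK. Neither differed detectably. Ptpn1, with 15 peaks of which 7 were tested, had 274.3 ± 23.8 CPM in KO libraries and 274.0 ± 9.39 CPM in WT libraries as a sum (SD, n = 5; edgeR adjusted p = 0.957). The Ptpn1 promoter peak had 78.6 ± 4.77 CPM in KO libraries and 82.9 ± 10.7 CPM in WT libraries, and the tested peak with the smallest p, 100934 bp upstream, 9.51 ± 4.73 CPM in KO libraries and 7.17 ± 2.26 CPM in WT libraries (adjusted p = 0.469). Ptpn2, on chromosome 18, had 146.4 ± 4.98 CPM in KO libraries and 141.9 ± 16.3 CPM in WT libraries as a sum (adjusted p = 0.918). A promoter peak 354 bp upstream of its start had 26.8, 33.8, 32.2, 30.3 and 29.9 CPM in libraries Sample_2268_KO to Sample_2272_KO, against 25.4, 25.2, 25.5, 24.7 and 23.3 CPM in libraries Sample_2273_WT to Sample_2277_WT. All KO libraries were higher than all WT libraries there, but the log2 fold change of 0.28 ± 0.14 did not pass (edgeR adjusted p = 0.385). The larger Ptpn2 peak over the start had 110.0 ± 7.57 CPM in KO libraries and 112.6 ± 15.2 CPM in WT libraries (adjusted p = 0.917).

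Ptpn7 encodes a haematopoietic phosphatase that acts on the MAP kinases ERK and p38. Only 1 peak carries its symbol, in intron 5 of 9 (chromosome 1, 135136669 to 135136754). It had 7.31, 7.39, 6.77, 4.87 and 5.07 CPM in libraries Sample_2268_KO to Sample_2272_KO, against 9.92, 8.41, 7.43, 12.3 and 8.22 CPM in libraries Sample_2273_WT to Sample_2277_WT. Every KO library lay below every WT library, by a narrow margin and on 4 to 17 counts, and the log2 fold change of -0.60 ± 0.28 did not pass (edgeR adjusted p = 0.298). Peaks around the RefSeq start of Ptpn7 carry the symbol of the neighbouring phosphatase gene Ptprv. A Ptprv peak at -608 bp from that start (135131162 to 135131298) had 14.0 ± 3.24 CPM in KO libraries and 7.59 ± 1.53 CPM in WT libraries (SD, n = 5; 1.78-fold, edgeR adjusted p = 0.0217), whereas the peak at 135132515 to 135132766 had 32.6 ± 3.54 CPM in KO libraries and 33.3 ± 3.995 CPM in WT libraries (adjusted p = 0.872). The second of these Ptprv peaks covers the deposited Ptpn7 start at 135132725, and neither is part of the Ptpn7 sum. Over the other 8 genes no called peak with another symbol lay within the RefSeq span or 3 kb upstream.

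**Figure D4:**
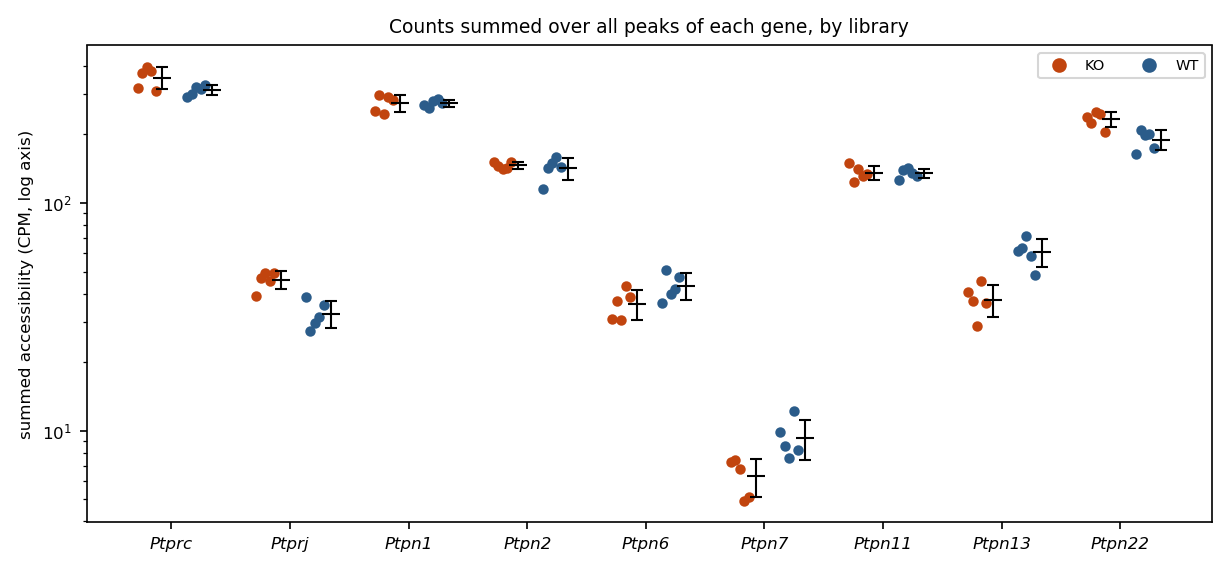
Summed CPM of all peaks of each of the 9 genes in every library (points), with mean and SD (bars, n = 5), on a log axis and with KO left of WT. Ptprj and Ptpn22 were called higher in KO and Ptpn13 lower, and the other 6 genes were not called.

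As sums, 3 of the 9 genes were called, Ptprj and Ptpn22 higher and Ptpn13 lower, where 2.19% of 12489 gene sums were called (1.65% higher and 0.536% lower). The sums of Ptprj, Ptpn13 and Ptpn7 did not overlap between KO and WT. Over all gene sums this was so for 3.12%. The Ptpn7 sum consists of its 1 uncalled peak, so it adds nothing to that peak. The median log2 fold change over the 41 tested peaks was 0.02, and over all 34695 tested peaks -0.01. The 37 tested peaks that were not called had log2 fold changes of -0.76 to 0.47, with 20 above 0 and 17 below, and 4 had an unadjusted p under 0.05. The 21 untested peaks had group means of 1.24 to 8.31 CPM and at most 24 counts in a library, and in none did the groups separate.

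The other classical protein tyrosine phosphatases were counted in the same fits. Of 29 genes in that list 25 had a peak and 18 were tested. With edgeR 0 rose and 1 fell (0 and 2 at an unadjusted p under 0.05), where 1.65% of all gene sums were called higher and 0.536% lower. The gene that fell was Ptpn23, the endosomal phosphatase HD-PTP, with 66.6 ± 10.4 CPM in KO libraries and 83.6 ± 7.98 CPM in WT libraries (SD, n = 5; 0.777-fold, edgeR adjusted p = 0.0162). It was called by limma-voom too but not by DESeq2. At single peaks 2 of 30 rose with edgeR (6.67%, where 2.96% of all tested peaks were called higher) and 0 were called by DESeq2. They were the Ptprv peak above and an exonic peak nearest to Ptpn9 (10.8 ± 2.50 CPM in KO libraries and 4.12 ± 1.20 CPM in WT libraries, 2.54-fold, adjusted p = 0.00089). Ptprs, Ptpn12 and Ptprn2, next by p, had folds of 0.868, 0.912 and 0.853 and did not pass (adjusted p = 0.0968, 0.474 and 0.483).

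Several of the 9 phosphatases act on kinases, adaptors and brakes of T cell receptor signalling. Among 22 such genes 0 gene sums rose and 1 fell, by edgeR, DESeq2 and limma-voom alike (0 higher at an unadjusted p under 0.05 with edgeR). Of all gene sums edgeR called 1.65% higher and 0.536% lower. Sla2, an adaptor that lowers receptor levels, had 93.2 ± 11.4 CPM in KO libraries and 125.1 ± 9.10 CPM in WT libraries (SD, n = 5; 0.760-fold, edgeR adjusted p = 0.000613). Zap70, Csk and Dok1 had folds of 1.09, 1.08 and 1.11 (adjusted p = 0.41, 0.436 and 0.452). At single peaks edgeR called 14 higher and 1 lower of 178 tested (8.43% in either direction, against 3.89% of all tested peaks). DESeq2 called 3 higher and 1 lower. Over all peaks edgeR called 1.62% in promoters and 5.85% outside them, and this list was not split by class. An intronic peak of Csk, the kinase that puts the inhibitory phosphate on LCK, had 32.1 ± 8.87 CPM in KO libraries and 12.7 ± 3.09 CPM in WT libraries (2.53-fold, adjusted p = 3.4e-09). Peaks of Ubash3b and Dok1 rose 2.09-fold and 2.06-fold, and an intronic peak of Lck, the kinase CD45 activates, 1.48-fold (adjusted p = 0.0207). The intronic Sla2 peak fell to 0.663-fold. These peaks were singled out after their values were seen.

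In the list of JAK and STAT substrates 1 of 11 gene sums rose and 0 fell with edgeR, DESeq2 and limma-voom, where 1.65% of all gene sums were called higher and 0.536% lower with edgeR. Tyk2, a JAK kinase, had 117.5 ± 17.6 CPM in KO libraries and 84.2 ± 5.88 CPM in WT libraries (SD, n = 5; 1.37-fold, edgeR adjusted p = 0.000205), and its promoter peak rose 1.35-fold. Il6st, Stat5b and Jak2 had gene folds of 1.07, 1.04 and 0.962 and did not pass as sums. A distal intergenic Il6st peak (chromosome 13, 112388195 to 112388578), singled out after its value was seen, was called higher. It had 27.7 ± 5.87 CPM in KO libraries and 8.08 ± 2.93 CPM in WT libraries (3.35-fold, edgeR adjusted p = 6.7e-11). Of 76 tested peaks of the list 3 rose and 0 fell (3.95%, against 3.89% of all tested peaks), and DESeq2 called 1 higher. Of 9 tested receptors and adaptors that dock SHP-1 or SHP-2, 0 passed as a sum with any of edgeR, limma-voom and DESeq2 (1 had an unadjusted p under 0.05). Cd5 stood at 1.16-fold (edgeR adjusted p = 0.174), and 2 of 29 tested peaks were called by edgeR (6.90%, against 3.89% of all tested peaks). An intronic Cd5 peak was called at 1.55-fold by edgeR (adjusted p = 0.00049), and the Gab3 promoter at 0.619-fold by edgeR alone (adjusted p = 0.0496). DESeq2 called 0 peaks of this list and limma-voom 1 higher and 0 lower. Of the 3 genes for MAP kinases bound by the Ptpn7 product 0 passed with any of the 3 tools, and 0 had an unadjusted p under 0.05 with edgeR. Of the 5 genes for splicing regulators of Ptprc 0 passed with any of the 3 tools and 1 had an unadjusted p under 0.05 with edgeR, namely Hnrnpll, with 111.3 ± 17.4 CPM in KO libraries and 99.8 ± 6.57 CPM in WT libraries (1.14-fold, adjusted p = 0.262).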

How the data were processed

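ATAC-seq counts of 5 KO and 5 WT libraries were used. The deposited table holds whole-number read counts per peak, not normalized by the authors, for 61581 peaks, of which 10 are mitochondrial and were left out. Position, class, nearest gene symbol and distance to its start site come from the deposited peak annotation (mm10). Per the submitters' processing notes the tools used were MACS2 2.1.2, Bowtie2 2.3.5, Trimmomatic 0.36, ChIPseeker 1.18.0, DESeq2 1.22.2, SAMtools 1.9, Picard and deepTools, with no roles given. Per the labels' protocols reads were single, 75 bp. Cut-site shifting, duplicate removal and pooled or separate peak calling are not given in the sources used here; duplicate removal would cap the counts of dense peaks in deep libraries.

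Counts were fitted with edgeR 4.0.16 in R 4.3.3 (quasi-likelihood F test without covariates, filterByExpr and TMM). Benjamini-Hochberg adjustment covered the 34695 tested peaks or the 12489 tested gene sums (of 14287), at a threshold of 0.05. A gene sum adds the counts of every peak with 1 deposited symbol. CPM divide counts by the TMM-scaled in-peak total. Folds are fitted values that include a small prior count, so SEs derived from the F statistic are approximate for peaks near 0. Peaks called in either direction were compared with the other peaks of their gene as log2 ratios (pseudocount 0.5) by two-sided exact permutation over 252 assignments. Similarity used log2 CPM with a prior count of 2 and left out Gm, LOC and Rik symbols. Alternatives were RLE or total-count scaling, other count filters, DESeq2 1.42.0, limma-voom (limma 3.58.1), leaving out libraries, thinning, merging libraries within Poisson noise, and other sets of peaks. The scripts were tested on simulated data. Of the 61571 annotated peaks 7971 have no symbol, and 0 of these carry the gene number of a member.

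The 9 members and all lists were chosen with earlier results of these data known. Named are all called member peaks, per gene the promoter peak with the highest mean CPM and, without a called peak, the tested peak with the smallest p, and up to 4 genes per other list by adjusted p. Promoter sequences came from RefSeq (GRCm38.p6), which had an entry for 8 of the 9 members, all but Ptpn2. Depth limits precision: median counts per peak ran over 5 to 17 across libraries. List counts include some genes whose own values are not reported here.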

Additional observations from a re-analysis of the deposited data

Results flagged for a closer look

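Among the KO libraries, the promoter peak of Ptpn13 had a far value. Sample_2271_KO stood at 18.4 CPM, the next KO library at 11.8 CPM and the lowest at 9.74 CPM, so the gap to the nearest library was 0.756 of the whole range, above the critical value of 0.71 for 5 libraries. This was the 1 such value among 60 groups of 5 libraries checked, where chance flags about 1 in 20 groups. Without Sample_2271_KO the promoter peak was still not called.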

How the results depend on the processing

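The calls of the Ptprc, Ptpn13 and Ptpn22 peaks held in all alternatives that tested them, with log2 fold changes of 2.83 to 3.48, -1.51 to -1.10 and 0.58 to 0.73, and that of the Ptprj peak in all but DESeq2 (1.09). No paired analysis was possible because the libraries carry running numbers that no KO library shares with a WT library. Thinned counts left some peaks below the filter, and these gave no value there.

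The Ptprj sum lost its call with DESeq2 (log2 fold change 0.51), after thinning (0.50), without the called peaks (0.37), in promoter peaks alone (0.24) and in peaks within 50 kb (0.44). The Ptpn13 sum lost it without the called peaks (-0.32), in promoter peaks alone (-0.41) and within 50 kb (-0.32). The Ptpn22 sum lost it with DESeq2 (0.27), without the 3 lowest libraries (0.23), after thinning (0.29), without the called peaks (0.11) and in promoter peaks alone (0.12). The number of gene sums called higher was therefore 0 with DESeq2, after thinning, without the called peaks and in promoter peaks alone, and 1 without the 3 lowest libraries and within 50 kb. That of sums called lower was 0 without the called peaks, in promoter peaks alone and within 50 kb. The ratio of the Ptpn22 peak to the promoter peaks was 0.45. The peaks within 50 kb include the called peak of Ptprj but not that of Ptpn13, and thinning removes depth. Why these calls were lost was not tested.

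Signs turned in values that were not called in any alternative; the Ptpn6 sum stood at -0.23 with all its peaks. Without the 3 lowest libraries the Ptprc promoter stood at -0.13, the Ptpn6 promoter at -0.0090 and the Ptpn11 sum at 0.0018. After thinning the Ptpn11 promoter stood at -0.10 and the Ptpn1 and Ptpn2 sums at -0.043 and -0.0013. In promoter peaks alone the Ptpn1 sum was -0.030, the Ptpn6 sum 0.063 and the Ptpn11 sum 0.014, and within 50 kb the Ptpn11 sum 0.027.

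Leaving out each library in turn gave 0.47 to 0.57 for the Ptprj sum and 0.23 to 0.33 for the Ptpn22 sum, 1 to 2 sums called higher, 1 to 2 peaks called lower, and ratios of 0.57 to 0.89 for Ptprj and 0.42 to 0.65 for Ptpn22. It gave -0.038 to 0.26 for the Ptprc promoter, -0.13 to 0.0090 for that of Ptpn1, -0.10 to 0.0047 for that of Ptpn2, -0.025 to 0.15 for that of Ptpn6 and -0.057 to 0.11 for that of Ptpn11. The downstream Ptpn11 peak ranged over -0.11 to 0.030, and the sums of Ptpn1, Ptpn2 and Ptpn11 over -0.011 to 0.047, -0.012 to 0.070 and -0.044 to 0.019. DESeq2 called 478 peaks higher and 41 lower in all, edgeR 1027 and 322.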
